A study of Mus musculus with 6 samples.

Results

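The genes described here were 10 immediate-early genes, Fos, Fosb, Jun, Junb, Egr1, Atf3, Nr4a1, Nr4a2, Nr4a3 and Gadd45b, followed through the cell classes of the brain borders in single-cell RNA sequencing of adult mice. They were 10 of the 31053 genes counted, and all 10 were found by symbol. They had been picked for how their UMI counts compared between cortical surface and bone-associated libraries in each cell class, so that contrast is given here as a description. No p is given for it, and counts of pairs past the limits of a fit describe what was picked and support nothing. The 6 libraries all came from C57BL6 wild type adult mice. The 4 cortical surface libraries were labelled as brain tissue and held what stays on the surface of the cortex, and the 2 bone-associated libraries were labelled dura and skull. Animals of both sexes were pooled for each library and were not perfused, so blood cells could be carried into either preparation. Intact, living nucleated cells were gathered by flow sorting (DRAQ5 positive, propidium iodide negative) and run through a droplet-based 3′ assay, which counts each captured transcript once by its unique molecular identifier (UMI). The cortical surface was digested on a coverslip, whereas the skull tissue was cut up before digestion. Preparation, dissection and digestion therefore cannot be told apart in any difference between the groups. Every library was a pool of animals, so p-values measure the spread between libraries.

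Immediate-early genes are transcribed within minutes of a stimulus, from factors that are already present in the cell, and they need no new protein to be switched on. Fos and Fosb pair with Jun or Junb to form AP-1, the dimer that binds many enhancers, and Atf3 is a related leucine zipper protein induced by stress. Egr1 is a zinc finger factor, Nr4a1, Nr4a2 and Nr4a3 are orphan nuclear receptors that bind DNA without a known physiological ligand, and Gadd45b is a small stress-response protein that acts on MAP kinase signalling and DNA repair. Taking tissue apart into single cells at warm temperature is itself a known stimulus for these genes, and so are cytokines, antigen receptors and flow.

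The 6 libraries differed in what they held. They contained 951, 1765, 5207 and 5602 cell barcodes in cortical surface libraries 1 to 4, and 1099 and 2936 in bone-associated libraries 1 and 2, with 8408685 to 56169736 UMIs each. Cortical surface libraries 3 and 4 stood apart from the other 4, since hemoglobin genes took 84.6% and 71.9% of all their UMIs against 0.0906% to 0.520% elsewhere. After filtering, 8680 cells remained, and 10 barcodes occurred in more than 1 library, with at most 2 in any pair of libraries. In the remaining cells of cortical surface libraries 3 and 4 hemoglobin still took 17.8% and 11.6% of UMIs, and their median depths of 5693 and 5468 UMIs per cell lay below the 7700.5 to 9556 of the other libraries. Results are therefore given with all 4 cortical surface libraries and against each pair of them. Cells were grouped separately in each preparation, so different clusters held a class in the 2 groups. The class names carry "-like" because they rest on marker genes, and the clusters were formed without the 10 genes and without the other immediate-early, heat shock and hemoglobin genes. Dendritic-like cells showed 3 and 4 of their 7 markers in at least 20% of cells in the cortical surface and bone-associated preparations, and neuron-like cells 4 of 8 with Slc17a7 at 0, while B-like cells showed 9 of 13, T or NK-like cells 11 and 10 of 11 and the other classes all of theirs. A class led by Ccl19 and Colec11 in the cortical surface and by Nts and Ccl19 in the bone-associated preparation held all 8 pericyte markers, and is called the Ccl19/Colec11-led class. Microglia-like and neuron-like cells came from cortical surface libraries, mast-like and Schwann-like cells from bone-associated libraries, and erythroid-like cells from cortical surface libraries 3 and 4. In all, 11 classes could be set side by side between the preparations.

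On GRCm38, Jun (chr4:95049034-95052222, minus strand) overlaps the antisense gene Junos, Junb (chr8:84974484-84978718, minus strand) overlaps Prdx2, and Atf3 (chr1:191170296-191218039, minus strand) overlaps Gm24748, each annotated on the opposite strand. Whether the counting used strand is not given in the sources used here, so a share of the UMIs of these 3 genes could belong to their partners. The other 7 genes overlap no annotated gene.

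For 9 of the 10 genes, RefSeq gives a sequence ahead of the transcription start. The bases ahead of the start hold some of the sites through which cAMP-responsive factors are known to act on this family, and 250 bases of 4 genes are printed here because Fos is the gene by which the family is known and the 3 NR4A genes held the most matches to one short motif. Capitals mark TGACG, the core of the cAMP response element, or its reverse complement CGTCA, on the strand of the gene (RefSeq, GRCm38.p6).
Fos, chr12:85473640-85473889, plus strand: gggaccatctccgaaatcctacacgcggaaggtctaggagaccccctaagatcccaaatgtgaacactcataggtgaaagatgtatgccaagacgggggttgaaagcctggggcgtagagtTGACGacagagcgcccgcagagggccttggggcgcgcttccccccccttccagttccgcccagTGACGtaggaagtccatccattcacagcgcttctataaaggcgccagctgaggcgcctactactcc
Nr4a1, chr15:101266596-101266845, plus strand: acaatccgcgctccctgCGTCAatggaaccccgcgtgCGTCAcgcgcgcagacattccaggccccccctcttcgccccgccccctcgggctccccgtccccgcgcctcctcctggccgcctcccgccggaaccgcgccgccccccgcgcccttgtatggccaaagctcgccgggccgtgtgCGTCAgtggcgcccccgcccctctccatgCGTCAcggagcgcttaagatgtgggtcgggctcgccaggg
Nr4a2, chr2:57124004-57124253, minus strand: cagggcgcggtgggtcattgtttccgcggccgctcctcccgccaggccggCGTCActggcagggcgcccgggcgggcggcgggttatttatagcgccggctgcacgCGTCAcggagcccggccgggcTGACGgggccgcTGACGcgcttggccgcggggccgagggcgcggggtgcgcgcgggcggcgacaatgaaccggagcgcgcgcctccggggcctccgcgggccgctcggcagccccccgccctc
Nr4a3, chr4:48045055-48045304, plus strand: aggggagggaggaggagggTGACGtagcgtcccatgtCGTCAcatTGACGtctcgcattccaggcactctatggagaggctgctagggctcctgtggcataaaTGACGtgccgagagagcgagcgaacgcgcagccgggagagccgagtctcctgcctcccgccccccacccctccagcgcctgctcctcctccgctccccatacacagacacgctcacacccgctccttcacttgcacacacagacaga
Nr4a1, Nr4a2 and Nr4a3 held 4 matches each on the 2 strands together, which 45 of all 32851 promoters of this length did or exceeded, 0.137% of them. Fos held 2 matches, and Fosb, Junb and Atf3 held 1 each. Jun and Gadd45b held none in this window. At least 1 match was thus found in 7 of 9 genes, against 17.8% of all promoters. None of the 9 held the full cAMP response element, in which TGACG is followed by TCA (1.55% of all promoters), the AP-1 site TGANTCA (6.75%) or a CArG box, the core of the serum response element (1.47%), on either strand. The known serum response element of Fos lies farther upstream, outside this window. The windows follow the RefSeq starts, which differ from the annotated gene positions for some genes. Those of Nr4a1 and Atf3 lie inside the annotated genes (chr15:101254269-101274795 and chr1:191170296-191218039). The annotated starts of Nr4a3 (48045153), Fosb and Gadd45b fall inside their windows. The match counts hold for the starts used. These are matches of letters, and no binding was measured.

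Summed over the 10 genes, the level within 1 library ran 14.2-fold to 333-fold between its highest and its lowest cell class. Values are in CPM, the UMIs of the 10 genes relative to all UMIs of a class in a library, in parts per 10 to the power of 6. Mast-like cells had the highest sum, at 41904 and 50961 CPM in the 2 bone-associated libraries. Schwann-like cells followed with 29510 and 33584 CPM. In vascular smooth muscle-like (VSMC-like) cells the sum was 22136 and 28101 CPM in cortical surface libraries 1 and 2, and 23955 and 22445 CPM in the bone-associated libraries, so that the 2 preparations overlapped. At the other end stood choroid plexus-like cells, at 1984, 20.5 and 25.3 CPM in cortical surface libraries 2 to 4 and 634 CPM in bone-associated library 1. Immune classes other than mast-like cells also reached both ends. Border macrophage-like cells were the highest class in cortical surface libraries 3 and 4, at 5788 and 8432 CPM. Those 2 libraries held no VSMC-like, mast-like or Schwann-like cells, so this rank is among the classes present. B-like cells were the lowest class in cortical surface library 1 and bone-associated library 2, which held 1 choroid plexus-like cell each. T or NK-like cells gave 3090, 5553, 623 and 698 CPM in cortical surface libraries 1 to 4 and 5125 and 5544 CPM in the bone-associated libraries, and B-like cells gave 1376, 4869, 571 and 628 CPM against 2036 and 3283 CPM. Dendritic-like and monocyte-like cells had means of 4028 and 4278 CPM in the bone-associated libraries, below the 5334 CPM of T or NK-like cells.

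**Figure D1:**
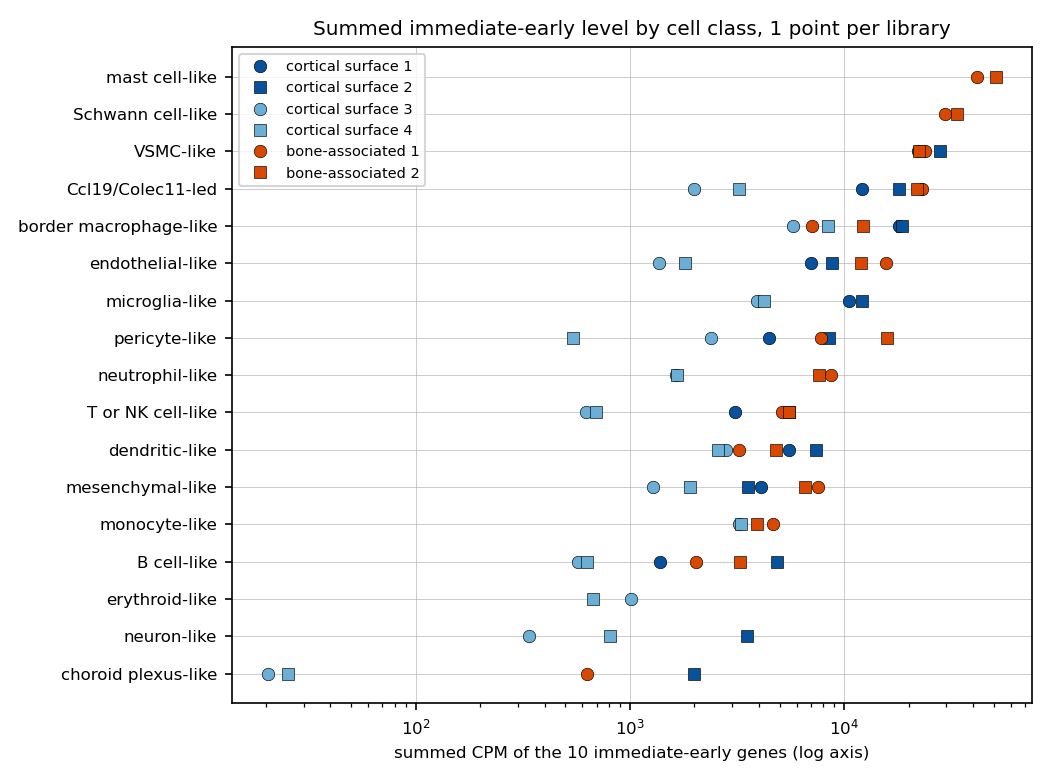
Summed level of the 10 immediate-early genes in each cell class and library, in CPM on a log axis, with 1 point for each library that held at least 10 cells of the class. Mast-like cells lie highest at 41904 and 50961 CPM, choroid plexus-like cells lowest, and cortical surface libraries 1 and 2 lie above libraries 3 and 4 in 9 of 9 classes.

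Cortical surface libraries 1 and 2 carried more of these transcripts than libraries 3 and 4 in every class with all 4, 9 of 9 for the sum and for Fos, Fosb and Jun individually. The ratio of the pairs' means was 2.40 to 6.54 over the 9 classes for the sum, with a median of 4.42. Border macrophage-like cells, for example, had 17984 and 18549 CPM in libraries 1 and 2 but 5788 and 8432 CPM in libraries 3 and 4. Their median depths in the 4 libraries were 13078.5, 11830, 3105 and 3443 UMIs. The clusters of this class also differed in level, as given under the other observations, so part of this contrast may lie in the mix of clusters, which was not tested. Gadd45b was higher in both libraries of the first pair in 8 of 9 classes, Nr4a2 in 4 and Nr4a3 in 3 of 9. The same ratio had a median of 2.15 for 34 other immediate-early genes summed and 2.75 for 11 heat shock genes summed. Hemoglobin and depth moved with the pairs as given above, and their part in the difference was not tested.

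The order of classes was not the same when cells were counted. Each cell was thinned to 1500 UMIs so that depth would not set the count of genes seen, which left out 225 shallower cells. In mast-like cells 85.7% and 96.4% of cells of the 2 bone-associated libraries carried 5 or more of the 10 genes. Schwann-like cells, second by the sum, had 78.6% and 70.5%, below VSMC-like cells and the Ccl19/Colec11-led class (86.2% and 74.1%) of the same libraries. VSMC-like cells had 81.0% and 93.6% in cortical surface libraries 1 and 2 and 93.1% and 95.3% in the bone-associated libraries. No choroid plexus-like cell reached 5 genes, out of 9, 34, 97 and 13 cells per library. In T or NK-like cells the share was 2.63% and 19.4% in cortical surface libraries 1 and 2, 0 in libraries 3 and 4 (0 of 165 and 0 of 302 cells, with exact 95% binomial upper limits of 2.21% and 1.21%), and 31.2% and 19.8% in the bone-associated libraries. Endothelial-like cells had 20.9%, 27.0%, 5.26% and 8.38% in the cortical surface libraries and 45.8% and 43.7% in the bone-associated ones, with no overlap between the preparations. These limits cover counting error only.

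**Figure D2:**
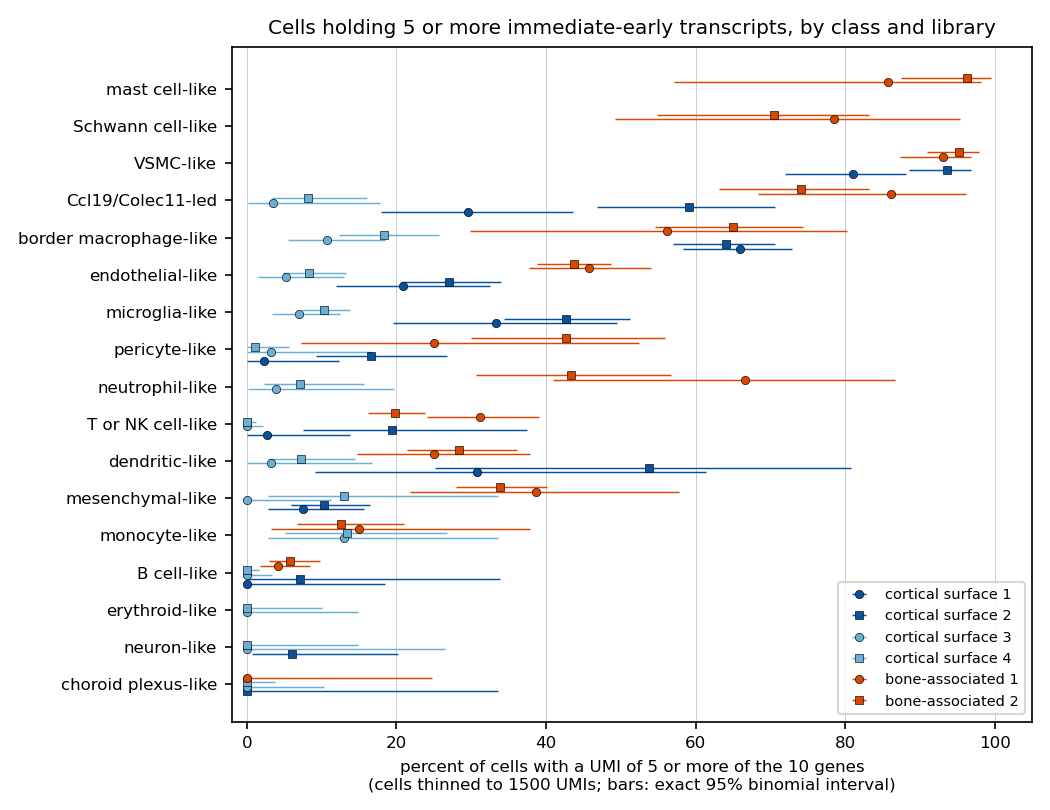
Share of cells with 5 or more of the 10 genes after thinning to 1500 UMIs, by class and library, in percent with exact 95% binomial intervals. Shares run from 0 in choroid plexus-like cells to 96.4% in mast-like cells of bone-associated library 2.

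Free RNA in droplets can give a UMI to a cell that does not transcribe the gene. Choroid plexus-like cells served as the low reference, although their median share of mitochondrial UMIs was 0.0033% and 0.042% in cortical surface libraries 3 and 4, against 6.66% and 6.90% in the other 2 libraries. There, 0 of 34 and 0 of 97 thinned cells had a Fos UMI, whereas 6.58% and 14.1% of endothelial-like, 44.1% and 49.3% of border macrophage-like and 50% and 40.8% of neutrophil-like cells did. In cortical surface library 2, 11.1% of 9 choroid plexus-like cells had one, and in bone-associated library 1 it was 23.1% of 13 cells. Fos shares of 10.8% in B-like and 21.0% in T or NK-like cells of that bone-associated library were thus at or below that reference. Without thinning, the shares were 61.5% in choroid plexus-like, 28.7% in B-like and 45.9% in T or NK-like cells of that library, at median depths of 78286, 4867 and 6063 UMIs. Nr4a3 was seen in 0 of 13 thinned choroid plexus-like cells of bone-associated library 1 and in 58.6% of T or NK-like cells of the same library. At these unlike depths free RNA could take a smaller share of the UMIs of choroid plexus-like cells. Their shares therefore set no limit on free RNA in the shallower classes, and its part was not tested.

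Between the preparations, 54 of the 110 pairs of gene and class were called higher in the bone-associated libraries. A call required an adjusted p under 0.05 in edgeR's quasi-likelihood test with Benjamini-Hochberg adjustment over all genes of a class, and a log2 difference of at least 1.3. Among all genes 5.45% of 80110 such pairs were called in that direction, but the 10 genes were picked on this contrast, so nothing is read from the excess. The 1 pair called in the other direction was Egr1 in dendritic-like cells. In 62 pairs both bone-associated libraries lay above every cortical surface library (17.3% of pairs among all genes), in 4 pairs both lay below (19.6%), and in 44 pairs the preparations overlapped. With the classes formed from all 6 libraries clustered together, 55 of 110 pairs were again called, 54 of them higher in the bone-associated libraries.

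The classes fell apart in how many of the 10 genes were called. The Ccl19/Colec11-led class and pericyte-like cells each had 8 (background of all genes in either direction 12% and 5.78%). Endothelial-like, mesenchymal-like and neutrophil-like cells each had 7 (6.38%, 14.1% and 10.8%). B-like cells had 4 (3.78%), among them Atf3. Before thinning, Atf3 had a UMI in 0, 7.14%, 1.82% and 0.45% of B-like cells of cortical surface libraries 1 to 4. It thus entered that fit only through the bone-associated libraries, so the filter had favoured a difference. T or NK-like, VSMC-like, dendritic-like and monocyte-like cells had 3 each (7.83%, 5.91%, 5.36% and 6.36%), and border macrophage-like cells 2 (6.72%). In border macrophage-like cells the 2 were Nr4a3 and Gadd45b. The median log2 difference of the 10 genes ran from -0.35 in dendritic-like to 3.08 in neutrophil-like cells, and that of all genes from -0.13 to 0.05. Neutrophil-like and monocyte-like cells were set against cortical surface libraries 3 and 4 alone and VSMC-like cells against 1 and 2, so these ranks are not like for like. Against libraries 3 and 4 the median was higher in T or NK-like (4.10), endothelial-like (3.59) and pericyte-like cells (3.28) and the Ccl19/Colec11-led class (3.73) than in neutrophil-like cells.

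Which cortical surface libraries were used mattered. Against libraries 1 and 2, 34 of 90 pairs were called higher in the bone-associated libraries (4.22% of all genes) and 4 of 90 lower (2.19%). Those 4 were Jun in T or NK-like cells at -1.38, Jun and Egr1 in border macrophage-like cells at -1.96 and -1.40, and Atf3 in mesenchymal-like cells at -1.80 on the log2 scale. Against libraries 3 and 4, 75 of 100 pairs were called and all of them were higher in the bone-associated libraries (6.04%). The median difference over classes was -0.60 for Fos and -0.48 for Jun against libraries 1 and 2, and 2.54 and 1.19 against libraries 3 and 4. For these AP-1 genes the direction thus turned with the pair of libraries, whereas for Nr4a1 and Gadd45b the medians were 1.10 and 2.29 against the first pair and 3.15 and 3.15 against the second.

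**Figure D3:**
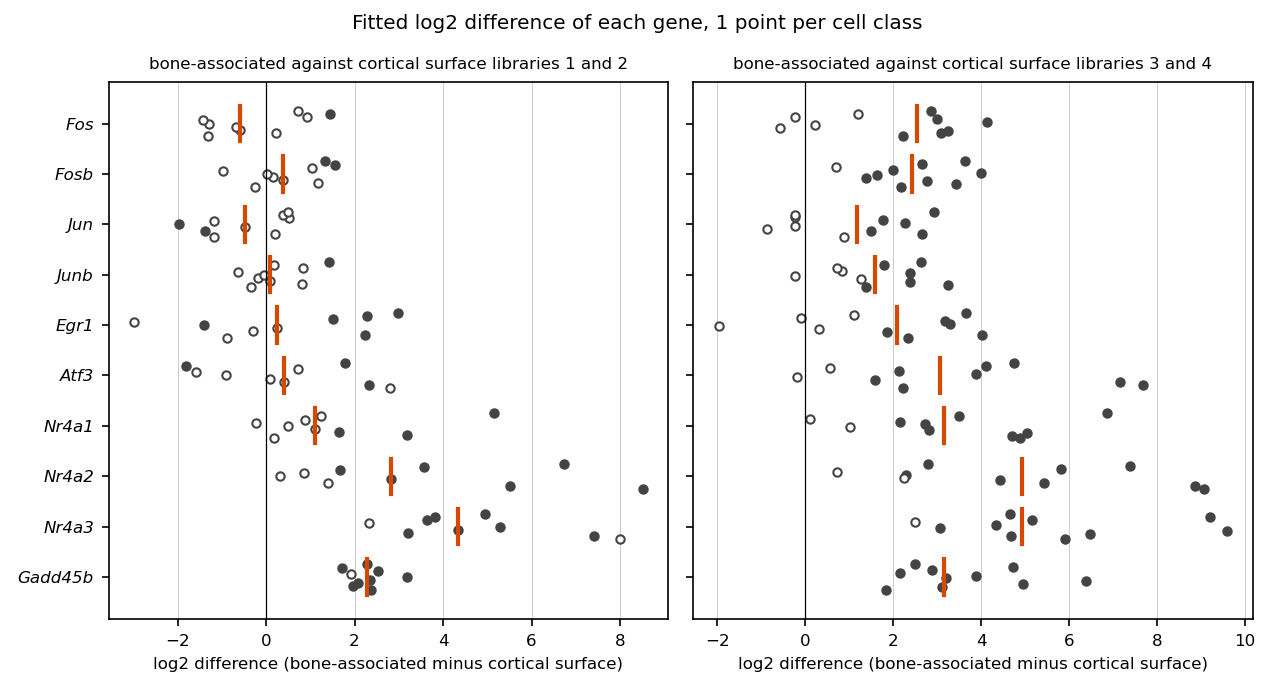
Log2 difference between bone-associated and cortical surface libraries for each of the 10 genes, with 1 point per class, shown against cortical surface libraries 1 and 2 and against libraries 3 and 4. Fos and Jun lie around or below 0 against the first pair and mostly above 0 against the second, while Nr4a3 and Gadd45b lie above 0 against both. Fitted values of genes with no UMIs in 1 preparation depend on the prior count.

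Over all 4 cortical surface libraries, the median difference over classes was 0.35 for Fos, -0.24 for Jun, 1.29 for Fosb and 0.73 for Junb on the log2 scale. Against cortical surface libraries 1 and 2 it was 0.39 for Fosb and 0.08 for Junb, still above Fos and Jun, which changed places (-0.60 and -0.48). Against libraries 3 and 4 Fos was highest, at 2.54 against 2.42 for Fosb, 1.59 for Junb and 1.19 for Jun. The order of the 4 AP-1 genes thus depended on the libraries. Fos was called in 1 of 11 classes, mesenchymal-like cells, with 877, 857, 212 and 333 CPM in cortical surface libraries 1 to 4 and 2488 and 2184 CPM in the bone-associated libraries, a log2 difference of 1.95 ± 0.39 (SE). The cortical libraries here held mostly cells led by Slc6a13 and Ptgds, and the bone-associated libraries mostly cells led by Comp and Cilp2. In endothelial-like cells Fos also did not overlap, at 1847, 2161, 121 and 236 CPM against 4273 and 2905 CPM, but was not called. In VSMC-like cells it was the other way round, with 8410.2 and 8942 CPM in cortical surface libraries 1 and 2 and 5286 and 4775 CPM in the bone-associated libraries.

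Jun was called by edgeR in no class between the preparations, with 5 of 11 classes at an unadjusted p under 0.05 and 1 (border macrophage-like cells, lower) called by DESeq2. Border macrophage-like cells had 5659, 5999.5, 2229.5 and 2943 CPM of Jun in the cortical surface libraries and 989.5 and 1635 CPM in the bone-associated ones, so all 4 cortical surface libraries were higher. Endothelial-like cells had 1917, 2554, 607 and 536 CPM against 3223 and 2819.9 CPM, the reverse order. The 2 classes thus differed between the preparations in opposite directions in Jun without overlap, and the difference between them was not tested. Both held unlike clusters in the 2 preparations. Lyve1 was seen in 21.7% of bone-associated border macrophage-like cells, while each marker of that class reached at least 67.5% on the cortical surface. The largest endothelial-like cluster was led by Slc38a5 and Col6a6 on the cortical surface. In the bone-associated libraries it was led by Btnl9 and Gpihbp1.

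Fosb, a close relative of Fos in the AP-1 dimer, was called in 5 classes. In neutrophil-like cells it had 30.6 and 62.8 CPM in cortical surface libraries 3 and 4 and 455 and 272 CPM in the bone-associated libraries (log2 difference 2.66 ± 0.44). In pericyte-like cells the values were 224, 569.9, 108 and 45.4 CPM against 630.2 and 1174 CPM. Cortical surface library 2 came close to the lower bone-associated library there, and the other 3 lay well below. The call was lost without bone-associated library 2 (1.19) and with DESeq2 (2.04).

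Junb was called in 4 classes, among them neutrophil-like cells at 745 and 782 CPM against 2770.1 and 2986 CPM, a call lost without cortical surface library 3 (1.86) or 4 (1.78) and with cells thinned to 1500 UMIs (0.65). In endothelial-like cells Junb had 1224, 1921, 371 and 545 CPM in the cortical surface libraries and 2648 and 2617 CPM in the bone-associated libraries. That difference of 1.39 ± 0.38 was no longer called against cortical surface libraries 1 and 2 alone (0.84), nor without cortical surface library 3 (1.13) or 4 (1.23) or bone-associated library 1 (1.44) or 2 (1.33), with the replicate number as a block (0.88), with scaling by library size alone (1.36) or with DESeq2 (1.41). In pericyte-like cells Junb was 0.62 higher without bone-associated library 2, against 1.87 with both, and the call was lost, as it was without cortical surface library 1 (1.70) and with DESeq2 (1.88).

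Atf3 had its largest fitted difference in neutrophil-like cells, with 25.5 and 38.0 CPM in cortical surface libraries 3 and 4 and 755 and 544 CPM in the bone-associated libraries (4.12 ± 0.45). This class was set against libraries 3 and 4 alone, so its rank is not like for like. Against that pair the ratio of Atf3 means was 20.5 in neutrophil-like cells, 214 in T or NK-like cells and 123 in the Ccl19/Colec11-led class. The other classes with those libraries had lower ratios. In the Ccl19/Colec11-led class Atf3 had 208, 625, 24.0 and 5.25 CPM against 2073 and 1534 CPM (3.16 ± 0.69). That call was lost with DESeq2 (3.31), at least 1000 genes per cell (2.75), a mitochondrial limit of 20% (2.78), no doublet removal (2.86) and all libraries clustered together (2.71). Pericyte-like cells rested on 1 library, since bone-associated library 1 had 57.3 CPM and library 2 had 759 CPM, and without library 2 the direction turned to -0.79. Border macrophage-like cells had 3136, 3011, 304 and 724 CPM in the cortical surface libraries, and the bone-associated 1030.3 and 1821 CPM fell between the pairs. In mesenchymal-like cells Atf3 was at 458, 429, 27.0 and 23.8 CPM against 127 and 125 CPM, and the sign of the difference turned from -1.11 to 2.79 with at least 1000 genes per cell, 2.77 with all libraries clustered together and 2.13 against cortical surface libraries 3 and 4. With at least 1000 genes per cell, 27 cortical surface cells with leading markers of both border macrophage-like and mesenchymal-like cells were left unnamed. Their part in the turn, and any other cause, was not tested.

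Egr1 was called in 5 classes, higher in the bone-associated libraries in 4 and lower in 1. In pericyte-like cells it had 92.5, 244, 191 and 26.7 CPM in the cortical surface libraries and 1003 and 1499 CPM in the bone-associated libraries, a log2 difference of 3.25 ± 0.42. In the Ccl19/Colec11-led class it had 554, 932, 208 and 231 CPM against 3525 and 2502 CPM (2.83 ± 0.39), and in mesenchymal-like cells 236, 176, 40.6 and 182 CPM against 1205 and 787 CPM (2.54 ± 0.35). The bone-associated libraries were above every cortical surface library in these classes. In VSMC-like cells Egr1 overlapped between the preparations and was not called, at 1476 and 1753 CPM in cortical surface libraries 1 and 2 and 2135 and 1428 CPM in the bone-associated libraries (0.24 ± 0.27). Dendritic-like cells had the opposite order, with 584, 408, 273 and 154 CPM in the cortical surface libraries and 34.8 and 82.1 CPM in the bone-associated libraries (-2.60 ± 0.53). That call was lost without bone-associated library 1 (-2.08), against cortical surface libraries 1 and 2 alone (-2.99) and against libraries 3 and 4 alone (-1.97). In thinned dendritic-like cells Egr1 was seen in 61.5%, 53.8%, 16.1% and 11.5% of cells of the cortical surface libraries and in 5.00% and 8.39% of those of the bone-associated libraries. Cortical surface libraries 1 and 2 held 13 dendritic-like cells each. The class was unlike in the 2 preparations, with a cluster of 153 cells led by Ccl17 on the cortical surface. Its bone-associated clusters were a cycling one led by Ube2c (135 cells) and one led by Tnip3 and Cd209a (89 cells). The part of this mix in the Egr1 difference was not tested.

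**Figure D4:**
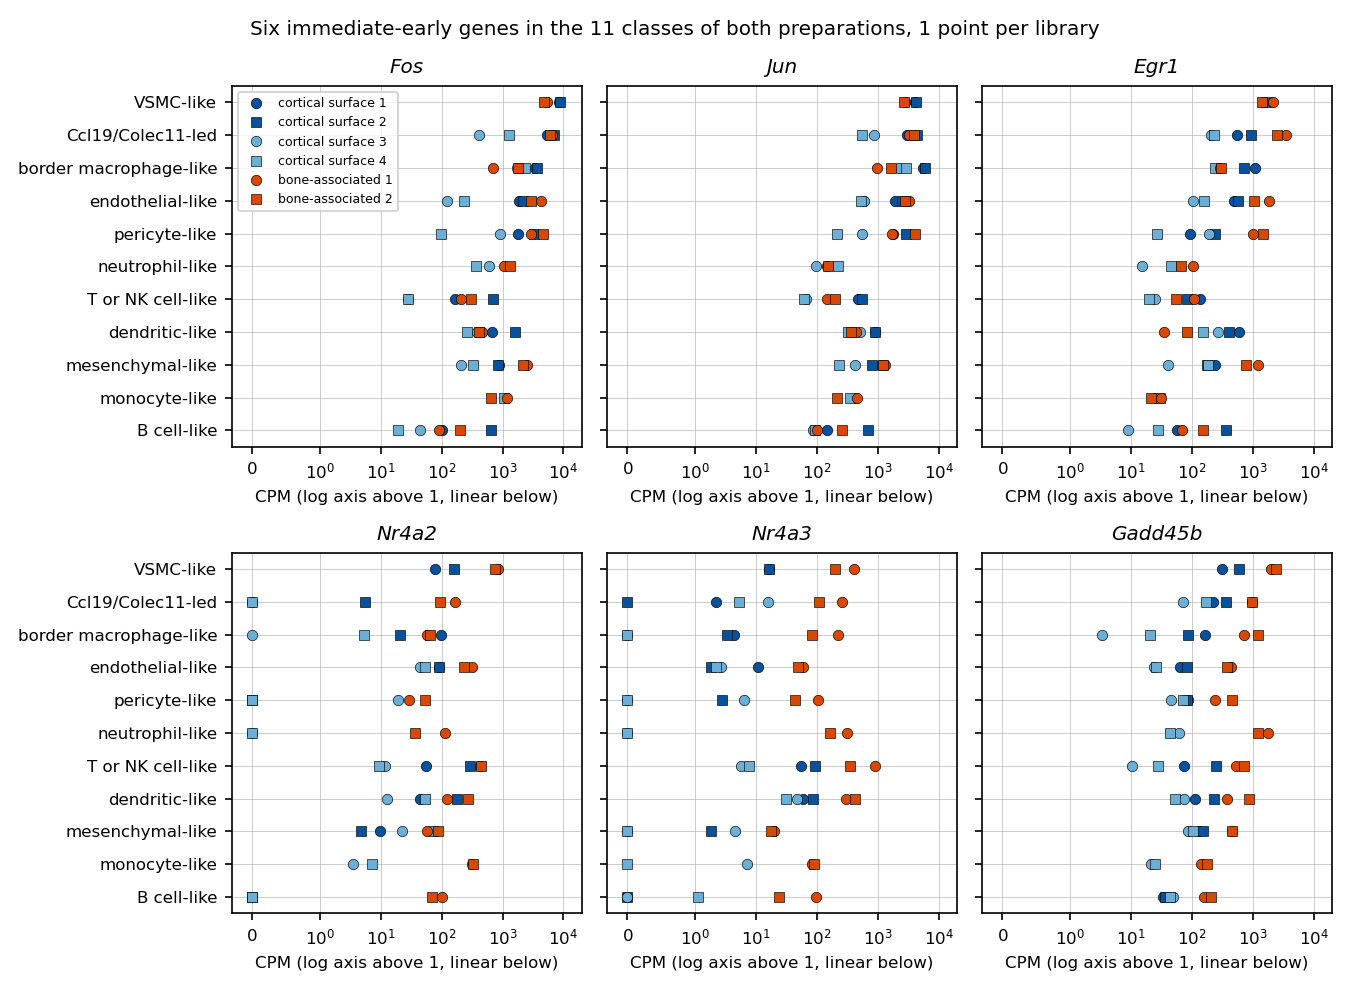
Levels of 6 of the genes in each class and library, in CPM on a log axis, with 1 point per library. Nr4a3 and Gadd45b of both bone-associated libraries lie above all cortical surface libraries in 11 of 11 classes, while the preparations overlap for Fos and Jun in 7 classes each.

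Of the nuclear receptors, Nr4a1 was called in 6 classes. In pericyte-like cells it was rarely seen on the cortical surface, at 0, 13.7, 0 and 2.67 CPM, and reached 201 and 346 CPM in the bone-associated libraries (6 against 156 UMIs). There it entered the fit only through the bone-associated libraries, so the filter had favoured a difference. In T or NK-like cells it had 163, 196, 18.3 and 13.7 CPM against 578 and 433 CPM. The bone-associated values lay above all cortical surface libraries there, yet the call was lost without cortical surface library 3 (2.23), without bone-associated library 1 (2.47) or 2 (2.83), with DESeq2 (2.48) and at a mitochondrial limit of 20% (1.57). Border macrophage-like and monocyte-like cells overlapped in Nr4a1, at 405, 299, 57.1 and 74.4 CPM against 309 and 534 CPM, and at 438 and 394 CPM against 522 and 350.2 CPM.

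Nr4a2 was called in 8 classes. In B-like, mesenchymal-like, monocyte-like, neutrophil-like and pericyte-like cells and the Ccl19/Colec11-led class it entered the fit only through the bone-associated libraries. There the filter had favoured a difference. In monocyte-like cells it had 3.56 and 7.10 CPM in cortical surface libraries 3 and 4 and 320.0 and 332 CPM in the bone-associated libraries, from 5 and 508 UMIs, which gave 55.7-fold more in the pooled counts. In VSMC-like cells it had 77.2 and 160.5 CPM in cortical surface libraries 1 and 2 and 844 and 746 CPM in the bone-associated libraries (2.82 ± 0.32), although Fos and Jun were lower there. No Nr4a2 UMI was found in B-like cells of the 4 cortical surface libraries, against 99.9 and 69.5 CPM and 165 UMIs in the bone-associated libraries, at least 41.5-fold higher when 3 counts are taken as the limit over the cortical surface libraries together. Neutrophil-like cells also had none on the cortical surface against 27 UMIs, at least 16.4-fold higher. In the Ccl19/Colec11-led class 3 UMIs stood against 150, a ratio of 59.3 with a 95% counting interval of 19.9 to 291. T or NK-like cells were not called, with 297 CPM in cortical surface library 2, 55.6, 11.5 and 9.30 CPM in the other cortical surface libraries and 424 and 439 CPM in the bone-associated libraries.

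Nr4a3 was called in all 11 classes, and in 11 of 11 both bone-associated libraries lay above every cortical surface library. Before thinning, no cortical surface library had Nr4a3 in 10% of B-like, border macrophage-like, endothelial-like, mesenchymal-like, monocyte-like, neutrophil-like or pericyte-like cells. The same held for the Ccl19/Colec11-led class. In these classes it entered the fit only through the bone-associated libraries, so the filter had favoured a difference. The same applied to T or NK-like cells, with unthinned shares of 21.05%, 35.48%, 3.636% and 4.29% in cortical surface libraries 1 to 4. Over the cells of those 4 libraries together the share was under 10%. T or NK-like cells had 55.6, 92.0, 5.77 and 7.66 CPM in the cortical surface libraries and 897 and 351 CPM in the bone-associated libraries (4.47 ± 0.76). Dendritic-like cells had 60.0, 85.9, 48.0 and 31.7 CPM against 301 and 422 CPM (2.66 ± 0.35). VSMC-like cells had 16.2 and 16.4 CPM against 416 and 202 CPM (4.33 ± 0.34). In these 3 classes the lowest bone-associated value was above the highest of the cortical surface. Border macrophage-like cells had 4.36, 3.35, 0 and 0 CPM against 224 and 84.6 CPM, and endothelial-like cells 10.7, 1.86, 2.63 and 2.22 CPM against 60.1 and 48.7 CPM. Over the 7 classes with more than 3 cortical surface UMIs, the pooled counts were 8.53-fold to 49.3-fold higher in the bone-associated libraries. Neutrophil-like cells had no UMI on the cortical surface against 99, at least 60.1-fold higher. In B-like cells 1 UMI stood against 113 (ratio 85.2, counting interval 15 to 3396), in monocyte-like cells 2 against 139 (38.1, 10.3 to 317), and in pericyte-like cells 2 against 28 (31.2, 7.86 to 269.9).

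Against cortical surface libraries 1 and 2 alone the calls of Nr4a3 were lost in B-like and dendritic-like cells, where those libraries held 13 to 18 cells each, and against libraries 3 and 4 alone in mesenchymal-like cells, with differences of 8.01, 2.33 and 2.49 in the same direction. After thinning, 58.6% and 35.1% of T or NK-like cells in the bone-associated libraries had an Nr4a3 UMI against 7.89%, 12.9%, 1.21% and 0.662% on the cortical surface. In border macrophage-like cells the shares were 25.0% and 14.4% against 0 of 173, 203, 102 and 142 cells. More cells carried the transcript in the bone-associated libraries, at equal depth. The T or NK-like class held unlike clusters in the 2 preparations. The largest was led by Ctla4 and Tnfrsf4 in the bone-associated libraries (207 cells) and by Cd8a and Cd40lg on the cortical surface (215 cells). Clusters led by Cd163l1 held 161 and 45 cells. The part of this mix in the shares was not tested.

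Gadd45b was the other gene called in all 11 classes with no overlap in any. In T or NK-like cells it entered the fit only through the bone-associated libraries, so the filter had favoured a difference there. Its unthinned shares in that class were 21.05%, 41.94%, 4.848% and 7.591% in cortical surface libraries 1 to 4. In VSMC-like cells Gadd45b had 317 and 597 CPM in cortical surface libraries 1 and 2 and 1984 and 2396 CPM in the bone-associated libraries (2.36 ± 0.32). Border macrophage-like cells had 162, 86.4, 3.36 and 20.3 CPM against 721 and 1231 CPM (3.92 ± 0.77), and endothelial-like cells 64.4, 83.2, 23.7 and 25.5 CPM against 438 and 376 CPM (2.94 ± 0.28). In these classes the level on the bone side was several times the highest cortical surface value. Neutrophil-like cells had 61.2 and 43.8 CPM in cortical surface libraries 3 and 4 against 1763 and 1214 CPM. Their fitted difference was the largest at 4.73 ± 0.47, and that of mesenchymal-like cells the smallest at 1.84 ± 0.25. Neutrophil-like cells were set against libraries 3 and 4 alone, so the ranks are not like for like. Against that pair the ratio of means was 28.3 in neutrophil-like, 82.5 in border macrophage-like and 32.9 in T or NK-like cells. The other classes with those libraries had lower ratios. The pooled counts were 3.37-fold to 28.4-fold higher in the bone-associated libraries. The call was lost in border macrophage-like cells without bone-associated library 2 (3.25), in T or NK-like cells without cortical surface library 1 (3.02) or bone-associated library 1 (3.26) or 2 (2.79) and with DESeq2 (2.90), and in dendritic-like cells without cortical surface library 1 (2.35), 3 (2.26) or 4 (2.16) or bone-associated library 2 (1.48) and against cortical surface libraries 1 and 2 alone (1.91). The share of thinned border macrophage-like cells with Gadd45b was 19.1%, 7.88%, 0 and 0.704% on the cortical surface and 62.5% and 69.1% in the bone-associated libraries.

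Mast-like and Schwann-like cells had no cortical surface counterpart. Mast-like cells had 10933 and 14822 CPM of Jun, 11301 and 15559 CPM of Junb and 3883 and 3733 CPM of Nr4a1 in the 2 bone-associated libraries. Of these Jun and Junb were seen in all thinned mast-like cells of both libraries. Atf3 was low in them, at 84.8 and 299 CPM. Schwann-like cells, the glia of peripheral nerve, had 2905 and 5378 CPM of Atf3 and 7908 and 8891 CPM of Fos, but 22.4 and 279 CPM of Gadd45b. Both classes rested on few cells, 15 and 57 mast-like and 15 and 47 Schwann-like.

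Differences between cell classes within the same libraries were not used to pick the genes, and they were tested with the library as a block. Of 56 pairs of gene and comparison, 17 were called over 6 comparisons, in which 16.6% to 36.6% of all genes were called. The share of the 10 genes was near that of all genes for T or NK-like over B-like cells (20% against 18.4%). The same held for endothelial-like over mesenchymal-like (22.2% against 24.2%) and neutrophil-like over monocyte-like cells (40% against 36.6%). A gene was tested when at least 1 of the 2 classes had a UMI of it in over 10% of cells, and 5 of the 17 passed only through the class where they were higher. For these 5 the values are given without a p, since the filter had favoured a difference. T or NK-like cells had 2 of the 10 genes called over B-like cells (18.4% of all genes in either direction), Nr4a2 and Nr4a3. Nr4a3 had 55.6, 92.0, 5.77, 7.66, 897 and 351 CPM in T or NK-like cells of cortical surface libraries 1 to 4 and bone-associated libraries 1 and 2, and 0, 0, 0, 1.14, 97.6 and 23.8 CPM in B-like cells. It was higher in T or NK-like cells in 6 of 6 libraries, by 3.53 ± 0.23 on the log2 scale, and Nr4a2 was higher in 6 of 6 by 2.63 ± 0.28. Both had passed the filter only through T or NK-like cells, with a UMI in 43.5% and 40.4% of them against 6.07% and 9.31% of B-like cells. Both calls were lost with the library not in the fit (3.08 and 2.43). Nr4a1 had the opposite direction in 6 of 6 libraries, -0.93 ± 0.22, which is short of the fold required for a call.

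Border macrophage-like cells against monocyte-like cells had 4 called (19.4%), from cortical surface libraries 3 and 4 and both bone-associated libraries. Egr1 had 272, 238, 293 and 303 CPM in border macrophage-like and 25.0, 30.2, 31.3 and 21.5 CPM in monocyte-like cells, a difference of 3.35 ± 0.22 (edgeR, adjusted p = 1.18e-05). The 4 libraries of each class did not overlap, and in these 4 libraries Egr1 of each class was nearly level between the preparations. Border macrophage-like cells of cortical surface libraries 1 and 2 had 1092 and 707 CPM of Egr1, well above the bone-associated libraries. Jun was 2.33 ± 0.30 and Fosb 2.21 ± 0.32 higher in border macrophage-like cells, in 4 of 4 libraries each (edgeR, adjusted p = 0.000385 and 0.000659). These 3 calls held under every alternative. Nr4a2 differed by -2.26 ± 0.30, being lower in border macrophage-like cells, in 4 of 4 libraries, with 0, 5.41, 57.0 and 65.2 CPM against 3.56, 7.10, 320.0 and 332 CPM. It had passed the filter only through monocyte-like cells (54.6% against 9.83% of cells), and the call was lost with the library not in the fit (-2.43).

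Between the 2 macrophage populations of the cortical surface, microglia-like cells had less Fos and Fosb than border macrophage-like cells (2 of 8 called, background 16.6%). Fos had 1391, 2087, 368 and 436 CPM in microglia-like and 3354, 3633, 1697 and 2298 CPM in border macrophage-like cells, lower in 4 of 4 libraries with -1.86 ± 0.17 (edgeR, adjusted p = 2.46e-09). Fosb differed by -1.54 ± 0.13 in the same libraries (edgeR, adjusted p = 4.28e-10), a call lost with cells thinned to 1500 UMIs (-1.02). Egr1 did not follow them, at 0.47 ± 0.13 and higher in microglia-like cells in 3 of 4 libraries.

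In the vasculature, endothelial-like cells exceeded pericyte-like cells in 3 of 9 genes (23.8%), Atf3, Nr4a1 and Nr4a2. Nr4a1 had 414, 327, 39.4, 119.9, 755 and 522 CPM in endothelial-like cells and 0, 13.7, 0, 2.67, 201 and 346 CPM in pericyte-like cells of cortical surface libraries 1 to 4 and bone-associated libraries 1 and 2, higher in 6 of 6 by 2.80 ± 0.58 (edgeR, adjusted p = 0.00144). Atf3 was higher in 5 of 6 by 1.91 ± 0.55 (edgeR, adjusted p = 0.0123). Nr4a2 was higher in 6 of 6 by 3.16 ± 0.45, but had passed the filter only through endothelial-like cells (29.2% against 4.78% of cells). At a mitochondrial limit of 20% all 3 calls were lost (Nr4a1 1.82, Atf3 1.15, Nr4a2 1.43). Those of Nr4a1 and Atf3 were also lost with all libraries clustered together (2.09 and 1.15) and with the library not in the fit (1.94 and 1.35), that of Nr4a1 in the bone-associated libraries alone (1.18), and that of Atf3 with no doublet removal (1.18) and without cortical surface library 1 (1.56). Over mesenchymal-like cells, endothelial-like cells had 2 of 9 called (24.2%), Nr4a1 by 1.55 ± 0.26 in 6 of 6 libraries (edgeR, adjusted p = 0.000811) and Nr4a2 by 1.96 ± 0.47 in 5 of 6 (edgeR, adjusted p = 0.0073). Both were lost with the library not in the fit (1.45 and 1.61), and Nr4a2 also with cells thinned to 1500 UMIs (1.00).

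Neutrophil-like against monocyte-like cells had 4 of 10 called (36.6%), in a comparison where the median of all genes was itself at -0.53. Gadd45b had 61.2, 43.8, 1763 and 1214 CPM in neutrophil-like and 21.4, 24.8, 143 and 179.5 CPM in monocyte-like cells of cortical surface libraries 3 and 4 and bone-associated libraries 1 and 2. It was higher in neutrophil-like cells in 4 of 4 libraries by 2.74 ± 0.36 (edgeR, adjusted p = 3.75e-07), and the call held under every alternative. Nr4a2 differed by -2.24 ± 0.45 and was lower in 4 of 4, but had passed the filter only through monocyte-like cells (54.6% against 6.82% of cells). Egr1, higher in 3 of 4 libraries by 1.33 ± 0.41 (edgeR, adjusted p = 0.00999), and Nr4a3, higher in the 2 bone-associated libraries and absent from neutrophil-like cells of both cortical surface ones, at 1.40 ± 0.43 (edgeR, adjusted p = 0.0102), lay close to the limits. The calls of Egr1 and Nr4a2 were lost without bone-associated library 2 (1.20 and -1.58), and that of Nr4a3 without bone-associated library 1 (1.12) or 2 (1.60). Counting these, Egr1 was called in 16, Nr4a2 in 18 and Nr4a3 in 13 of the 20 settings that could test them.

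**Figure D5:**
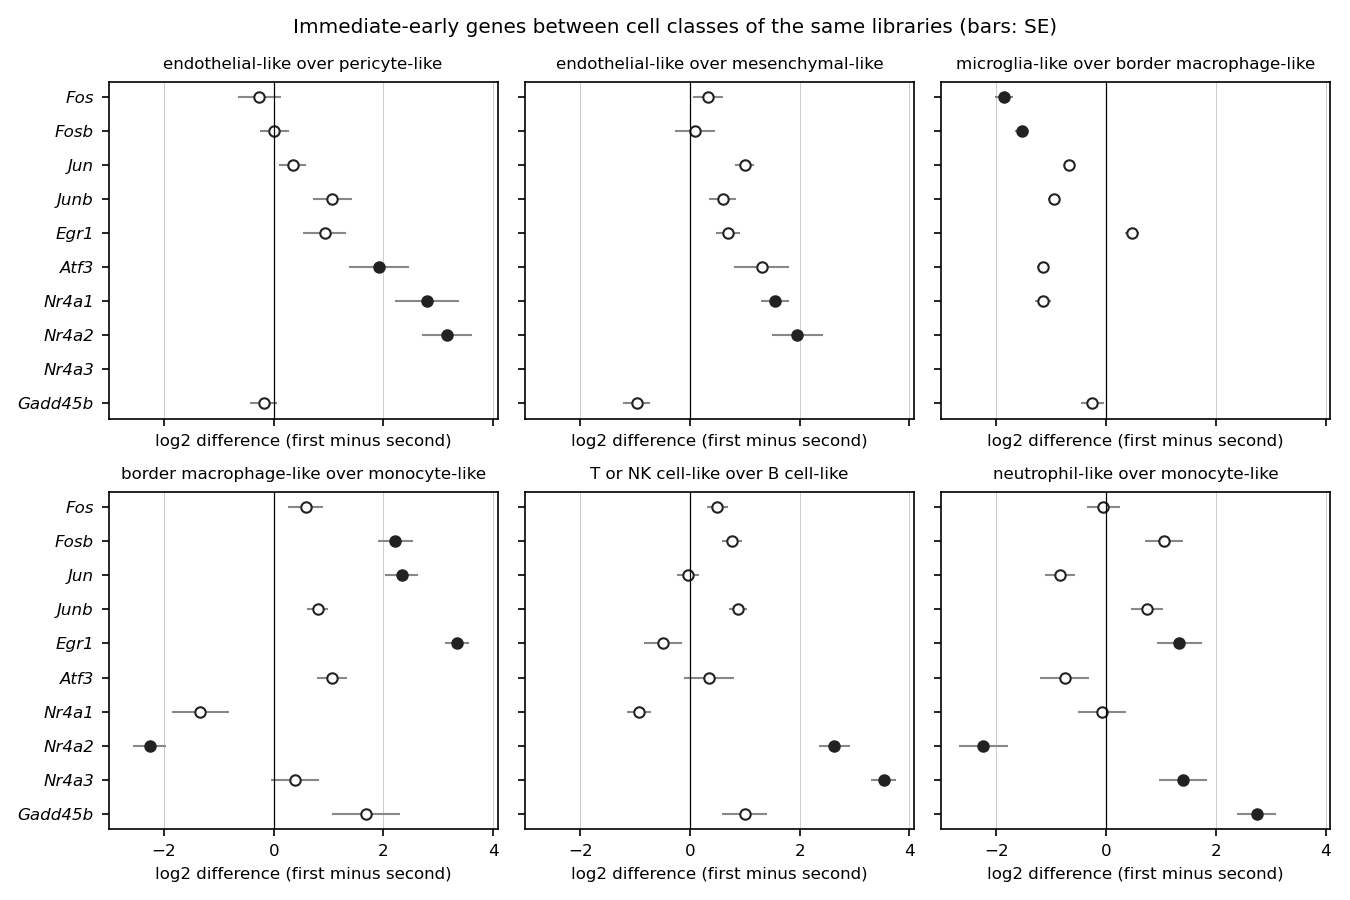
Log2 difference between 2 cell classes of the same libraries for each of the 10 genes in 6 comparisons, from the fit with the library as a block, with bars of 1 SE. Filled points are called, 17 of 56, where 16.6% to 36.6% of all genes were called per comparison. Among the filled points are Egr1 in border macrophage-like over monocyte-like cells at 3.35 and Fos in microglia-like over border macrophage-like cells at -1.86. Of the 17, 5 had passed the filter only through the class where they were higher.

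Beyond the 10 genes, 34 other immediate-early genes were listed, and over the 11 classes 118 of 304 pairs were called between the preparations, 112 of them higher in the bone-associated libraries (5.45% of all pairs were called higher). Like the 10, these belong to the contrast on which the genes were picked, so nothing is read from the count. In the Ccl19/Colec11-led class Egr2, a close relative of Egr1, had 0 to 2.62 CPM over the cortical surface libraries and 79.5 to 118 CPM in the bone-associated ones. Egr3 in VSMC-like cells had 1.99 to 2.20 CPM against 36.7 to 44.6 CPM. At such low cortical surface levels these 2 genes entered the fits only through the bone-associated libraries, so the filter had favoured a difference. The growth arrest gene Gadd45g had 240.3 to 326 CPM against 1825 to 1969.8 CPM in VSMC-like cells and 0 to 27.4 CPM against 143 to 402 CPM in pericyte-like cells, and the MAP kinase phosphatase gene Dusp5 had 8.87 to 14.3 CPM against 146 to 218 CPM in monocyte-like cells. Groups that do not overlap were a condition for naming these genes. A few went the other way, with Cyr61, a secreted matrix protein gene, at 237 to 416 CPM against 3.11 to 8.14 CPM in border macrophage-like cells and Klf2 at 954 to 2600 CPM against 258 to 447 CPM in B-like cells. Of 111 pairs of heat shock gene and class 19 were called, all higher in the bone-associated libraries (against the same 5.45%), 6 of them in the Ccl19/Colec11-led class. Against cortical surface libraries 1 and 2 alone, 10 of 97 such pairs were called higher (4.22% of all genes) and 4 lower (2.19%). Against libraries 3 and 4 alone, 44 of 100 were called, all higher (6.04%), so these counts too depended on the libraries used.

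Across the 77 sums of a class in a library, the gene whose level was most like the sum of the 10 was Zfp36, which encodes an mRNA decay factor (Pearson r of log2(CPM + 1) = 0.88 among 9379 genes). Gm26532 (0.87), Nfkbiz (0.82), Klf6 (0.82) and Ccnl1 (0.81) came next. Zfp36, Nfkbiz and Klf6 were on the list of other immediate-early genes and Gm26532 and Ccnl1 on neither list. The sums share libraries and depth, so these values are descriptive.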

How the data were processed

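Adult mouse border cells were measured by droplet-based 3′ single-cell RNA sequencing in 4 cortical surface and 2 bone-associated libraries, grouped by their titles in the labels. The authors deposited, for each library, a filtered matrix of UMI counts per gene and cell barcode, unnormalized, on the mouse build mm10. The file headers name Cell Ranger 6.1.2, while the submitters' processing notes name Cell Ranger 3. The labels' protocol describes papain digestion of another brain region, while the methods of the study describe collagenase and dispase, so the enzymes of these 6 libraries are not settled here. The 10 genes and the gene lists were chosen with earlier results of these data known.

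Barcodes under 500 genes or above 10% mitochondrial UMIs were dropped, and 124 cells were removed as doublets by their resemblance to simulated doublets. Each preparation was clustered on its own (2000 variable genes, 30 principal components, 15 neighbours, Leiden resolution 1.5, leidenalg 0.10.2, Python 3.11.15), without 59 genes that held the members, the other immediate-early, heat shock and hemoglobin lists. A cluster was named where at least 3 of the class markers were at least 2-fold enriched. The remaining 1157 cells were unnamed and entered no comparison. The Ccl19/Colec11-led class was set apart from pericyte-like cells, and the rule for erythroid-like cells was chosen, after the clusters were seen.

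Counts were summed per library and class with at least 10 cells, and a gene entered the fit when 10% of the cells on one side or the other had a UMI of it, with TMM normalization and the quasi-likelihood test of edgeR 4.0.16 (R 4.3.3). A call required an adjusted p under 0.05 (Benjamini-Hochberg) and a log2 difference of at least 1.3. Comparisons between classes of the same libraries had the library as a block. Shares of cells were computed after thinning to 1500 UMIs. The rule for named genes took all 10 members in each class with both preparations, the 2 other immediate-early genes with the largest called difference per class (at least 50 UMIs, no overlap), and the 5 genes with the highest correlation with the members. On simulated counts for endothelial-like cells (7746 genes), 95 of 95 genes changed by 3 on the log2 scale and 77 of 105 changed by 1.5 were recovered with 2 false calls, and for border macrophage-like cells (7724 genes) 94 of 95 and 59 of 105 with 4. DESeq2 1.42.0, other normalizations and filters, joint clustering, libraries left out and a block on the replicate number were tried as alternatives. Either pair of cortical surface libraries alone, bone-associated libraries alone and hemoglobin genes left out were added after seeing the data. Promoter sequences were from RefSeq (GRCm38.p6) and gene positions from GENCODE vM21, which gave 30934 of the 31053 genes.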

Additional observations from a re-analysis of the deposited data

Results flagged for a closer look

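Among 90 groups of 4 cortical surface libraries, 1 for each gene and class with all 4, 8 held a library whose gap to its nearest neighbour exceeded the limit of Dixon's test at 95%, where chance would give about 1 in 20. In B-like cells, cortical surface library 2 stood far above the other 3 in Fos (637.8 CPM), Jun (687 CPM) and Egr1 (368 CPM), from 14 cells. Cortical surface library 2 also stood above the others in Nr4a2 of T or NK-like cells (297 CPM) and of the Ccl19/Colec11-led class (5.57 CPM). The other 3 were Nr4a2 in pericyte-like cells of library 3 (19.1 CPM), Nr4a3 in B-like cells of library 4 (1.14 CPM) and Nr4a3 in endothelial-like cells of library 1 (10.7 CPM). The values of Nr4a2 in the Ccl19/Colec11-led class and pericyte-like cells and of Nr4a3 in B-like cells rested on 1 to 3 UMIs.

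In 4 cases all bone-associated libraries lay below all cortical surface libraries in 1 class and above them in others, and the difference between the classes was not tested. Fos differed by -0.68 on the log2 scale in VSMC-like cells and was higher in 3 other classes. Jun differed by -0.48 in VSMC-like and by -1.53 in border macrophage-like cells and was higher in 2 other classes. Egr1 differed by -2.60 in dendritic-like cells and was higher in 5 other classes.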

How the results depend on the processing

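Between the preparations, the 55 calls became 40 to 72 with single libraries left out, and 44 without bone-associated replicate 1 and 40 without replicate 2. Replicate numbers were shared between the groups, but no label says that they pair the libraries. In a fit with the number as a replicate block on libraries 1 and 2, 46 of 90 pairs were called, 39 of them higher in the bone-associated libraries, and the same-numbered libraries deviated together with r of 0.065 to 0.37 across genes over 9 classes, as a hint from 2 pairs. Other immediate-early genes gave 93 to 147 calls with single libraries left out, against 118, 83 with the replicate block and 76 against cortical surface libraries 1 and 2 alone. Of 55 calls, 33 held under every alternative other than those added after seeing the data, and 30 under these too. Between classes, the 17 calls became 8 with no replicate block (the library not in the fit), 35 without the limit on the fold and 16 to 24 with single libraries left out, and 5 of 17 held under all alternatives. The mean share of cells with a Fos UMI over 77 sums was 45.5% thinned to 1500 UMIs, 54.7% thinned to 3000 UMIs and 62.6% not thinned, so shares are tied to depth. Directions turned in Atf3 of mesenchymal-like cells (2.79 with at least 1000 genes per cell, 2.77 with all libraries clustered together, 2.13 against cortical surface libraries 3 and 4), in Atf3 of pericyte-like cells (-0.79 without bone-associated replicate 2, up to 4.12 without others), against cortical surface libraries 3 and 4 in Atf3 of border macrophage-like (1.58), Fosb of dendritic-like (1.63) and Jun of T or NK-like cells (1.49), and for Nr4a1 in neutrophil-like over monocyte-like cells (1.61, bone-associated libraries only); apart from the library or cells left out, the cause was not tested. Over genes, classes and settings, the named other immediate-early genes included, 2411 values between preparations stayed on their side of the threshold. These kept their direction or, where uncalled in both settings, turned by less than 1 SE. Another 122 fell under the threshold and 90 rose above it. A further 43 uncalled values turned direction by 1 SE or more. The 7 that turned with a call in the main fit or the alternative are those between preparations named above. With 2 bone-associated libraries, and 13 to 18 cells of a class in some cortical surface libraries, smaller differences could not be resolved.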

Other observations

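Within a class, clusters of the same libraries differed in the summed level of the 10 genes, although none of these genes entered the clustering. In mesenchymal-like cells of the cortical surface, the cluster led by Slc6a13 and Ptgds had 829, 954, 671 and 1346 CPM in libraries 1 to 4, whereas the cluster led by Igfbp6 and Mfap5 had 14369 and 8416 CPM in libraries 1 and 2. The latter had a median depth of 2355 UMIs per cell in library 1 and 16446 in library 2. With at least 1000 genes per cell, a cluster led by Igfbp6 and Mfap5 was split from an unnamed one of 27 cells. In the unnamed one 8 border macrophage and 7 mesenchymal markers led. The part of such mixed cells in the levels given here was not tested. Microglia-like cells of the cluster led by Il1a had 12333, 16513, 4668 and 5512 CPM, and those of the cluster led by Upk1b and P2ry12 had 3355, 3536, 3385 and 2811 CPM. The first cluster followed the difference between cortical surface libraries 1 and 2 and libraries 3 and 4, and the second was level over all 4.

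Border macrophage-like cells led by Adam33 and Lyve1, the only cluster of the class with over 50 cells in each cortical surface library, had 13858, 17682, 8609 and 11346 CPM. A cluster led by Ccl8 with median depths of 1207 to 2047 UMIs had 15077, 4425, 859 and 1749 CPM. In endothelial-like cells of the cortical surface, the cluster led by Cytl1 and Gkn3, which mark arteries, had 12627, 19995 and 5866 CPM in libraries 1, 2 and 4, above the clusters led by Car5a and Mfsd2a (6320.1, 6821 and 872 CPM) and by Slc38a5 and Vwf (4974, 7316 and 909 CPM). In the bone-associated libraries the cluster led by Cytl1 and Gkn3 had 8684 and 8023 CPM, and the one led by Selp and Sele, which mark veins, had 24881 and 17155 CPM.

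Among bone-associated dendritic-like cells, Gadd45b had 1101 and 1463 CPM in the cluster led by Tnip3 and Cd209a and 212 and 436 CPM in the cycling cluster led by Ube2c, and Nr4a3 had 717 and 792 CPM against 205 and 137 CPM. These values were chosen after they were seen and were not tested.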
